A study of Mus musculus with 9 samples.

Results

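Transcript ratios of the cadherins, the protocadherins and the catenins were examined in mouse hippocampus. The set holds every probe whose gene symbol, as annotated or updated, is a numbered Cdh, a Pcdh, a Ctnna, Ctnnb1, Ctnnd1 or Ctnnd2. It comprised 93 probes of 64 genes, out of 29922 probes and 16637 named genes on the array. By family there were 5 classical type I cadherins on 8 probes, 11 type II cadherins on 17 probes and 5 other cadherins on 6 probes. There were also 24 clustered protocadherins on 37 probes, 12 other protocadherins on 16 probes and 7 catenins on 9 probes. One of the other protocadherins was annotated as Pcdh21 and is now called Cdhr1.

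The study set hippocampal RNA of single female mice against each other on 9 two-colour arrays, 3 for each of 3 comparisons. The first set wild-type (WT) mice at 12 months over WT mice at 3 months, the second 3xTG over WT mice at 3 months, and the third 3xTG over WT mice at 12 months. WT mice carry the strain label 129SV with C57BL6. 3xTG mice, a line with mutant human transgenes used as a model of Alzheimer's disease, carry the label B6;129Psen1tm1Mpm Tg (APPSwe,tauP201L) 1Lfa. Each of the 4 groups had 2 mice, 8 in all, and RNA of most mice was hybridised on more than 1 array, so p-values rest on few animals. The comparison of WT ages shares its 3-month WT mice with the genotype comparison at 3 months and its 12-month WT mice with that at 12 months.

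Classical cadherins are calcium-dependent adhesion molecules that hold neighbouring cells together and, in the brain, line the edges of synapses. Their tails bind beta-catenin and p120-type catenins, and alpha-catenins link beta-catenin to actin. Freed beta-catenin also acts with TCF and LEF factors in Wnt signalling. Clustered protocadherins are expressed in different combinations in single neurons and give them a surface identity, whereas the other protocadherins are encoded apart from the clusters and act in axon growth and circuit formation. Presenilin, the catalytic part of gamma-secretase, cleaves N-cadherin and other members after a first cut by ADAM10.

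Values are log2 ratios minus the median of the array, so 0 stands for the array's median and not for equal amounts of RNA. Per the labels they were read as test over control, for example 3xTG over WT. Arrays listed 45.7 to 54.1% of all probes and 41.9 to 49.5% of the member probes, that is 29 to 37 of the 64 genes. No deposited log2 ratio lay between -0.5 and 0.5, so a gene that is not listed may have had a small ratio or may have been left out for another reason. Before centring the array medians lay between 1.42 and 2.34 for the WT ages, between -0.84 and 0.97 for the younger 3xTG mice over WT, and between -1.71 and -0.87 for the older. As a two-colour ratio holds no level, the tissue label could not be checked against its markers, and in bulk tissue fewer cells of a type cannot be told apart from less RNA per cell.

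**Figure D1:**
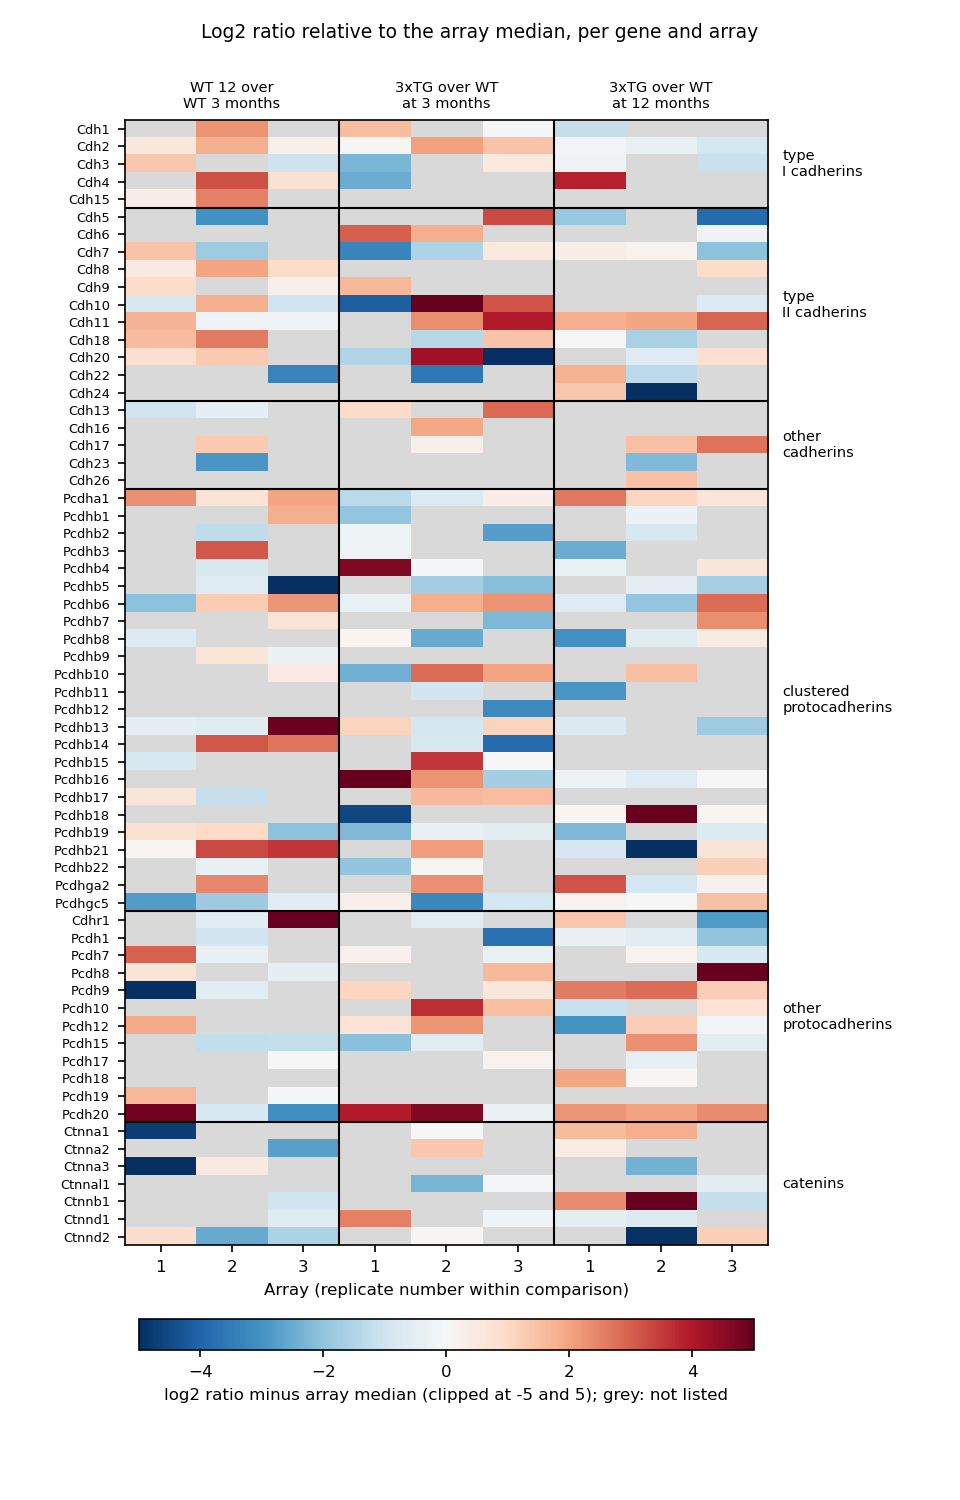
Log2 ratio minus array median for the 64 genes (rows, by family) on the 9 arrays (columns, 3 per comparison). Red is above the array median, blue is below it and grey is not listed; most genes are grey on several arrays, and 5 genes are listed on all 9.

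The genes with a value on every array were 5 of the 64, namely Cdh2, Pcdh20, Pcdha1, Pcdhb6 and Pcdhgc5. In the series as a whole 516 genes did. For testing, each comparison had to list a gene on 2 or more of its 3 arrays. That left 16 of the 64 members, 25.0%, against 23.92% of all genes. They were 2 type I cadherins, 4 type II cadherins, 6 clustered and 4 other protocadherins, with no catenin and none of the other cadherins.

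None of the 16 passed the test in any comparison (limma, Benjamini-Hochberg adjusted p threshold 0.05), and neither did any of the 3944 genes tested, so percent called was 0% in each. At an unadjusted limma p under 0.05, WT at 12 over 3 months had 1 member below 0 (Pcdh9) against 10.8% of all genes, and 0 above 0 against 3.32%. For 3xTG over WT at 3 months 1 member lay above 0 at that p (Cdh11) against 10.5% of all genes, and 0 lay below against 6.29%. At 12 months it was again Cdh11 above 0, 1 of 16, against 15.4% of all genes, and 0 below against 2.74%. For the genotype ratio at 12 months minus that at 3 months, 0 members lay above 0 at that p against 6.9% of all genes and 0 below against 2.54%. These shares in members are no larger than those in all genes.

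The signs of the fitted ratios were split within the set. For WT at 12 over 3 months 11 members were above 0 and 5 below, with a median of 0.55 against -0.15 for all genes tested, of which 46.3% were above 0. Without replicate 1 of that comparison 8 were above and 8 below, with a median of -0.33. For genotype at 3 months 7 were above and 9 below (median -0.29 against 0.12, with 52.9% of all genes above 0). Over the 27 members listed on 2 or more arrays of that comparison alone it was 16 above and 11 below (median 0.82 against 0.006 for all genes so listed). At 12 months 8 were above and 8 below (median -0.11 against 0.48, with 60% of all genes above 0), and without replicate 2 of that comparison the median was 0.59. Over the 29 members listed on 2 or more arrays of the comparison at 12 months it was 12 above and 17 below (median -0.36 against 0.33). For the difference between the ages 8 were above and 8 below, and 59.2% of all genes were above 0. Over the 22 members listed on 2 or more arrays of both genotype comparisons it was 8 above and 14 below (median -0.42 against 0.42). Without centring of the arrays the members' median for the WT ages was 2.41, and centring on abundant transcripts put that at 12 months at -1.74, so these medians hold only relative to the array median. Without centring the median of all genes was 1.74, 0.39 and -0.69 in the 3 comparisons in that order, and with abundant transcripts it was 0.50, -0.52 and -1.25.

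**Figure D2:**
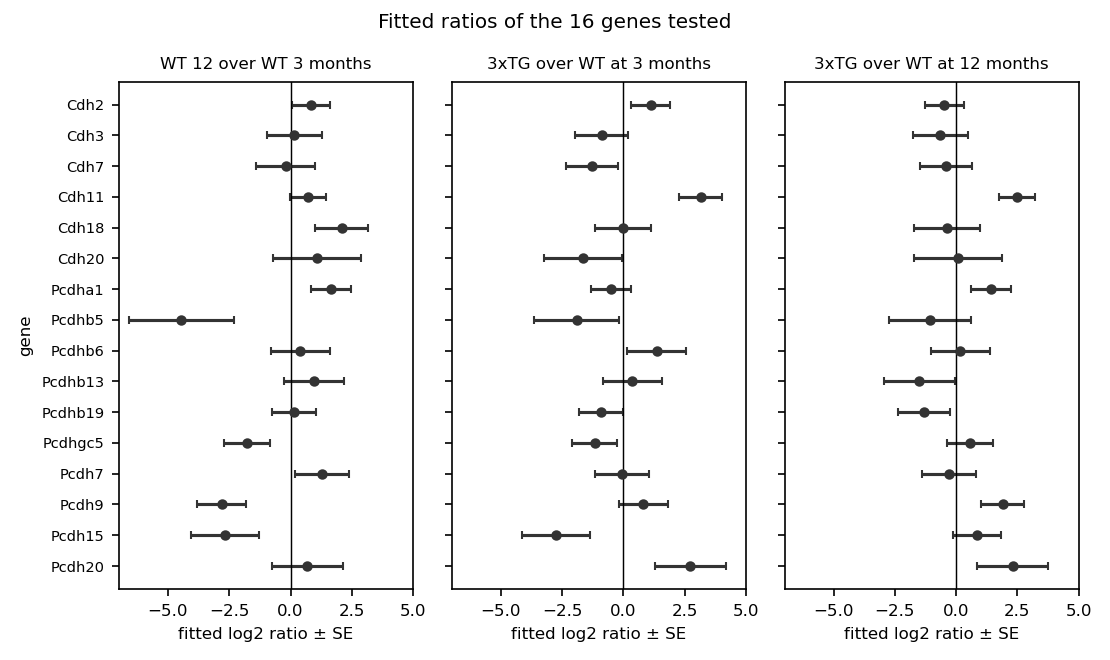
Fitted log2 ratio of the 16 tested genes (rows) in each comparison (panels), relative to the array median; points are limma estimates and bars are their standard errors. Cdh11 lies at 3.15 at 3 months and 2.48 at 12 months for 3xTG over WT, while most other genes lie within 2 standard errors of 0.

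Among type II cadherins, Cdh11 (cadherin-11, chromosome 8), which is expressed in mesenchymal cells and in the brain at excitatory synapses, had the smallest p of the members in both genotype comparisons. Its gene means in 3xTG over WT were 2.33 and 3.98 on the 2 arrays that listed it at 3 months, with no value on replicate 1, where an unlisted ratio of small size would lie between -1.34 and -0.34. At 12 months they were 1.82, 1.96 and 2.92. All 5 listed values were above the array median. For WT at 12 over 3 months the values were 1.68, -0.16 and -0.20, on both sides of 0.

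The 2 Cdh11 probes gave separate readings. On the genotype arrays at 3 months the first had 2.38 and 3.39 and the second 2.27 and 4.56 on replicates 2 and 3. At 12 months the first had 2.24, 2.25 and 3.58 and the second 1.40, 1.67 and 2.26. Both probes were thus above the array median on every genotype array that listed them. In WT at 12 over 3 months the first had 0.46, -0.16 and 0.17, and the second had 2.91 and -0.57 on replicates 1 and 3.

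The mean for 3xTG over WT was 3.15 ± 1.17 (SD, n = 2 arrays) at 3 months and 2.23 ± 0.60 (SD, n = 3 arrays) at 12 months. Fitted with the dye term, Cdh11 was at 3.15 ± 0.86 (SE) at 3 months (limma adjusted p = 0.163) and at 2.48 ± 0.73 at 12 months (limma adjusted p = 0.15). Neither passed the threshold. By p Cdh11 was number 118 of 3944 genes at 3 months and number 181 at 12 months. An unadjusted limma p under 0.05 with a ratio above 0 in both genotype comparisons was found in 228 of 3944 genes, 5.78%. Its ratio for the WT ages was 0.71 ± 0.73 (limma adjusted p = 0.788), and the genotype ratio at 12 months minus that at 3 months was -0.67 ± 1.13 (limma adjusted p = 0.893).

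The sign of Cdh11 for 3xTG over WT was the same at both ages under each alternative that could fit it, but its size was not. At 3 months it was 3.22 without centring and 2.05 with arrays centred on abundant transcripts, and at 12 months it was 1.34 and 0.80. Read as Cy5 over Cy3 it was 0.82 at 3 months and 0.43 at 12 months. With missing values set to 0 it was 2.49 at 3 months and 1.40 at 12 months. The labels name no batches, and 2 slide runs were inferred from the slide numbers of the raw data. Within run 2 it was 3.15 at 3 months and 2.44 at 12 months, and the 1 array of run 1 that listed it, at 12 months, had 1.82.

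**Figure D3:**
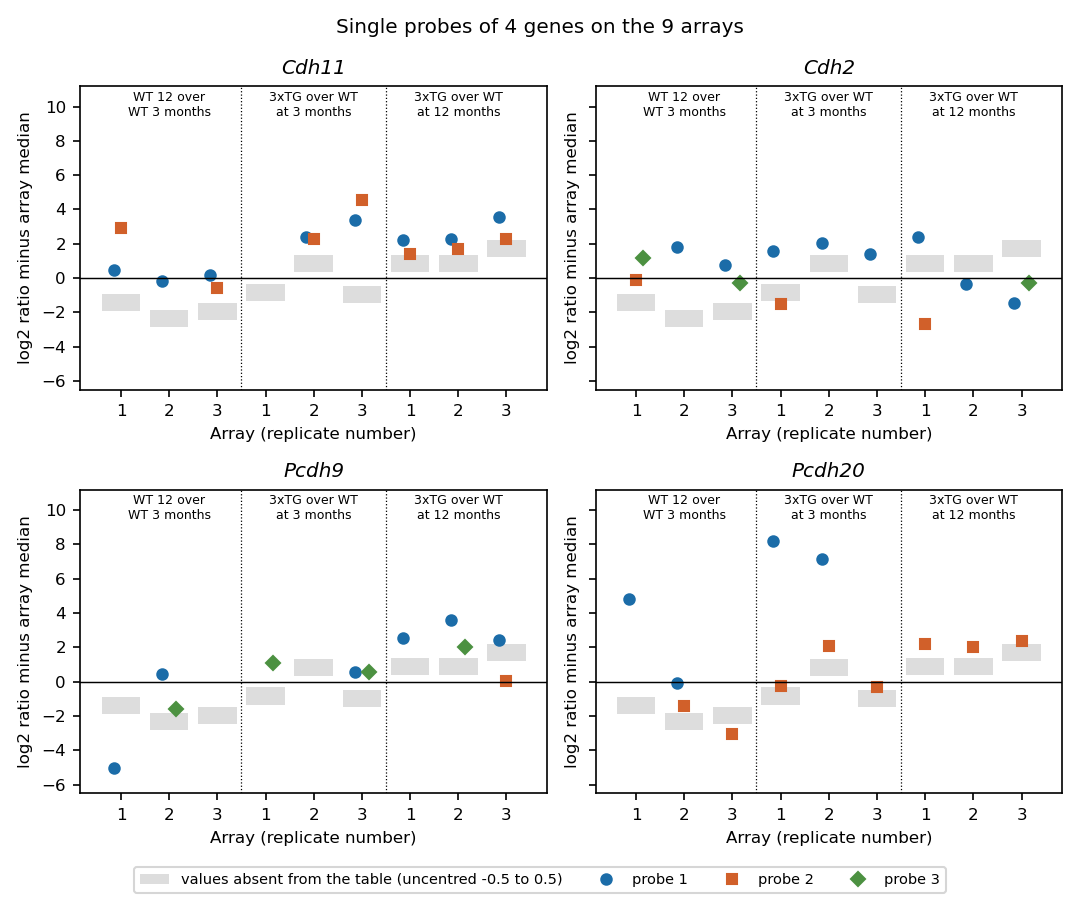
Log2 ratio minus array median for each probe of Cdh11, Cdh2, Pcdh9 and Pcdh20 on the 9 arrays; colours and shapes are probes and grey boxes mark where uncentred ratios from -0.5 to 0.5, absent from the table, would lie. The 2 Cdh11 probes lie side by side above 0 on the genotype arrays, whereas probe 1 of Pcdh20 reaches 8.20 and 7.16 on arrays where probe 2 is at -0.25 and 2.09.

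The other tested type II cadherins did not share this pattern. Cdh7 was at -3.28, -1.55 and 0.48 in 3xTG over WT at 3 months and at 0.28, 0.17 and -2.06 at 12 months. Cdh20 ran from -5.70 to 4.23 on the 3 arrays at 3 months. Cdh18, a cadherin of the nervous system, had 1.59 and 2.59 in WT at 12 over 3 months, both above the array median, with a fitted 2.09 ± 1.09 (limma adjusted p = 0.486). The fit gave 0.002 without replicate 2 of that comparison and 4.09 without replicate 1. Its genotype values were -1.41 and 1.41 at 3 months, then -0.03 and -1.60 at 12 months.

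Of the type II cadherins with too few values to test, Cdh8, a cadherin of glutamatergic circuits, had 0.43, 1.96 and 0.90 in WT at 12 over 3 months and 1 further value, 0.88, in 3xTG over WT at 12 months. All 4 were above the array median as gene means, but the 2 Cdh8 probes had opposite signs on replicates 1 and 2 of the WT ages. The first had -0.78 and -0.66 there and the second 1.64 and 4.58. Cdh9, known for its part at mossy fibre synapses of CA3, had 0.94 and 0.25 in WT at 12 over 3 months and 1.66 on 1 array of 3xTG over WT at 3 months. Cdh5, the VE-cadherin of endothelial junctions, had -3.03 on 1 array of the WT ages, 3.28 on 1 array of 3xTG over WT at 3 months, then -1.89 and -3.86 at 12 months. Its single value at 3 months was above the array median and both values at 12 months were below it. The endothelial marker Pecam1, the 1 of 7 endothelial and pericyte markers that could be tested, was at 1.01, -1.42 and -0.96 in the 3 comparisons, and its part in the Cdh5 values was not tested. Among genes listed on 2 or more arrays of the comparison itself, 3 of these markers could be tested for the WT ages. They had a median of -2.75, opposite to Pecam1, and 2 lay below 0 at an unadjusted limma p under 0.05. The 3 so listed for genotype at 3 months had a median of -1.86.

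Among type I cadherins, Cdh2 (N-cadherin, chromosome 18), the classical cadherin of excitatory synapses, was listed on all 9 arrays. In WT at 12 over 3 months its gene means were 0.54, 1.79 and 0.24, all above the array median. In 3xTG over WT it had 0.05, 2.04 and 1.43 at 3 months and -0.15, -0.36 and -0.87 at 12 months. All genotype values at 3 months were above the array median and all at 12 months below it. The lowest at 3 months was close to 0. Fitted ratios were 0.84 ± 0.78 for the WT ages, 1.11 ± 0.78 for genotype at 3 months and -0.48 ± 0.78 at 12 months (limma adjusted p = 0.757, 0.488 and 0.803). The genotype ratio at 12 months minus that at 3 months was -1.59 ± 1.09 (limma adjusted p = 0.647). Of the 1135 genes listed on all 6 genotype arrays, 17 (1.5%) were above the array median on all 3 arrays at 3 months and below it on all 3 at 12 months. Genes with the reverse order were not counted in this share.

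No array listed all 3 Cdh2 probes. On replicate 1 at 12 months the first probe had 2.38 and the second -2.67, which average to the value near 0. On replicate 1 at 3 months these probes had 1.61 and -1.51. The first probe on its own, listed on 8 arrays, had fitted genotype ratios of 1.46 ± 1.13 at 3 months and -0.25 ± 1.12 at 12 months (limma adjusted p = 0.56 and 0.925).

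Cdh3 (P-cadherin), the other type I cadherin tested, had -2.27 and 0.50 in 3xTG over WT at 3 months, then -0.18 and -1.11 at 12 months. The -0.18, on replicate 1, averages Cdh3 probes at 2.78 and -3.14. Cdh1 (E-cadherin), the cadherin of epithelia, had 2.25 on 1 array of WT at 12 over 3 months. The genotype arrays gave 1.56 and -0.07 at 3 months and -1.21 on 1 array at 12 months. Ttr, the 1 of 6 choroid plexus markers that could be tested, was at -0.93, 0.30 and -3.45 ± 0.83 in the 3 comparisons (limma adjusted p = 0.833, 0.91 and 0.145), and its part in the values of epithelial cadherins was not tested. Cdh13, the membrane-anchored T-cadherin among the other cadherins, had -1.01 and -0.45 in WT at 12 over 3 months and 0.94 and 2.85 in 3xTG over WT at 3 months. It was not listed in 3xTG over WT at 12 months. The -1.01, on replicate 1, averages Cdh13 probes at 1.05 and -3.07.

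Clustered protocadherins made up 24 of the 28 members on chromosome 18, where their gene clusters lie. Their probes may not tell neighbours apart, since genes of the alpha and gamma clusters share constant exons and the variable exons are alike. Probe sequences were not used here. On single arrays 9 to 17 of the 24 genes were listed, and the median over those listed lay between -0.73 and 1.25. The genotype medians were -0.29, -0.06 and -0.73 at 3 months and -0.66, -0.55 and 0.51 at 12 months, so 5 of the 6 were below the array median. The same medians over all genes listed lay between 0.01 and 0.20.

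**Figure D4:**
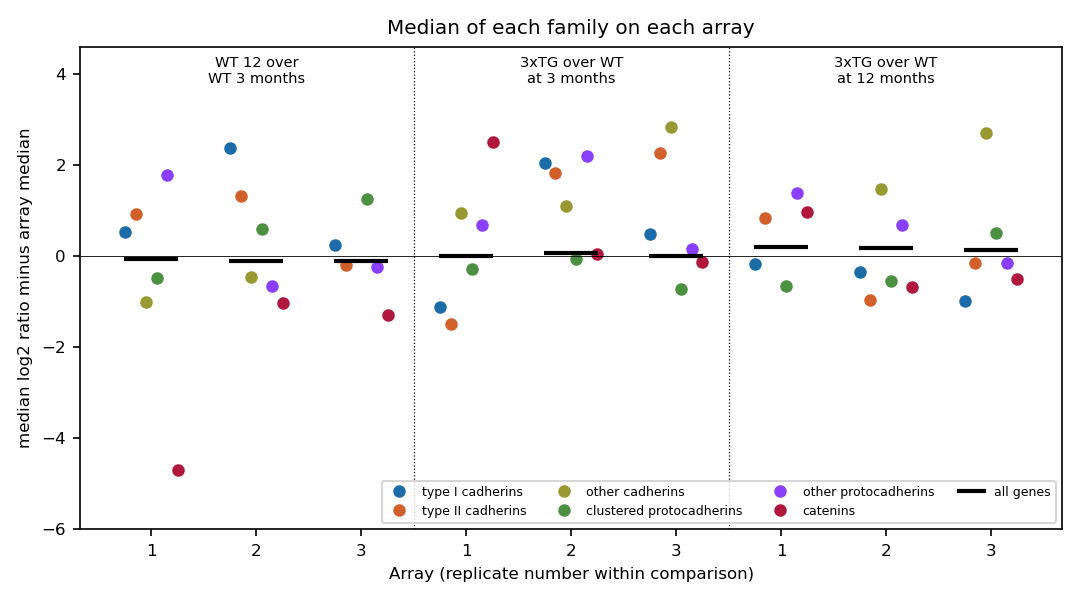
Median log2 ratio minus array median over the listed genes of each family (coloured points) and over all genes (black bars) on the 9 arrays. Clustered protocadherins, in green, lie between -0.73 and 1.25, while families with few listed genes, such as the catenins at -4.71 on the first array, scatter widely.

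Pcdha1, the first alpha variable gene, was listed on all arrays through 6 probes. It had 2.30, 0.68 and 1.97 in WT at 12 over 3 months, all above the array median. In 3xTG over WT it had -1.33, -0.69 and 0.35 at 3 months and 2.64, 1.07 and 0.61 at 12 months. These are means over the probes listed on each array, which could lie far apart. On replicate 3 of the WT ages the probes ran from -0.54 to 5.30, on both sides of 0. On replicate 1 of 3xTG over WT at 12 months they had 0.20 and 5.07. The fitted ratios were 1.66 ± 0.82, -0.51 ± 0.82 and 1.43 ± 0.81 (limma adjusted p = 0.417, 0.788 and 0.38). The genotype ratio at 12 months minus that at 3 months was 1.94 ± 1.13 (limma adjusted p = 0.596). With abundant transcripts as the centre its genotype ratio at 12 months was -0.30.

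Pcdhgc5, a gamma gene of the C type, had -2.78, -1.82 and -0.58 in WT at 12 over 3 months, all below the array median. Without centring its fitted ratio there was 0.073, against -1.78 ± 0.93 with centring (limma adjusted p = 0.459), so the direction rests on the centring. Without replicate 1 of the comparison the centred fit gave -0.66. Its genotype values were 0.24, -3.22 and -0.90 at 3 months and 0.19, -0.01 and 1.47 at 12 months, with values on both sides of 0 at each age. The 1.47, on replicate 3, averages probes at -1.46, 3.47 and 2.41. Pcdhb6 was at -2.05, 1.27 and 2.22 for the WT ages, at -0.34, 1.81 and 2.27 for genotype at 3 months and at -0.66, -1.94 and 2.78 at 12 months. Pcdhb6 was thus on both sides of the array median in every comparison. On replicate 1 at 3 months its probes had -3.93 and 3.24, which average to -0.34.

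Pcdhb19 had -2.20, -0.39 and -0.56 in 3xTG over WT at 3 months, then -2.24 and -0.69 at 12 months, below the array median on all 5 arrays that listed it. It was the 1 member of 14 with at least 5 of the 6 genotype values of which this was so, against 4.06% of all such genes. On replicate 3 at 3 months, though, the probes of Pcdhb19 had -1.47 and 0.34, so the gene value there averages both signs. Its fitted ratios were -0.90 ± 0.90 at 3 months and -1.32 ± 1.06 at 12 months (limma adjusted p = 0.643 and 0.552). Pcdhb5 had -1.69 and -2.12 in 3xTG over WT at 3 months, then -0.51 and -1.64 at 12 months. In WT at 12 over 3 months it had -0.63 and -7.86, the lowest value of any member, and a fitted -4.45 ± 2.15 (limma adjusted p = 0.44). That ratio was -8.24 without replicate 2 of the comparison and -1.06 without replicate 3. Pcdhb13 had -0.73 and -1.79 in 3xTG over WT at 12 months, with 1.10, -0.87 and 1.09 at 3 months. The 1.09, on replicate 3, averages Pcdhb13 probes at 4.62 and -2.43. Its values for the WT ages were -0.48, -0.62 and 4.89. Fitted genotype ratios at 12 months were -1.49 ± 1.44 for Pcdhb13 and -1.07 ± 1.67 for Pcdhb5 (limma adjusted p = 0.623 and 0.797).

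Of the other protocadherins, Pcdh9 and Pcdh20, both on chromosome 14, had the highest fitted genotype ratios at 12 months. Pcdh9 is expressed in cortical and hippocampal circuits. Their promoter stretches, 250 bases before to 50 after the annotated start, are shown because of these genotype values and because they differ in base composition. They are RefSeq sequences of GRCm38.p6, read 5′ to 3′ on the minus strand, with CG dinucleotides in capitals. Pcdh20 lies at chr14:88471347-88471646 and the first of 2 Pcdh9 entries at chr14:93890630-93890929.
Pcdh20: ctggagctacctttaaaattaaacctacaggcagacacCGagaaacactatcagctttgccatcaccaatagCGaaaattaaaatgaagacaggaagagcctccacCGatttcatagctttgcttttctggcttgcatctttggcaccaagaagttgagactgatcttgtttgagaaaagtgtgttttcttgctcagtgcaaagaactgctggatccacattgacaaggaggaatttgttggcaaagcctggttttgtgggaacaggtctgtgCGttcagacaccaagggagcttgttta
Pcdh9: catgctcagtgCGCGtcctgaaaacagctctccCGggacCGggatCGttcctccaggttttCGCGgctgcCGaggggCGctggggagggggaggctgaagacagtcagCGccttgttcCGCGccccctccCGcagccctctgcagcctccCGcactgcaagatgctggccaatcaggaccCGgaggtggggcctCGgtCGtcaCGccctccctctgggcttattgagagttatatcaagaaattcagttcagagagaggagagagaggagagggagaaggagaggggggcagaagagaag
The Pcdh20 stretch holds 4 CG dinucleotides, and 68.6% of 32851 promoter stretches hold at least as many. The Pcdh9 stretch holds 18, and 29.7% hold at least as many. Among the 28 members with an entry the median was 18, against 7 over all genes.

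Pcdh9 had 1.08 and 0.55 in 3xTG over WT at 3 months on replicates 1 and 3, and 2.57, 2.80 and 1.23 at 12 months, all 5 above the array median. With Cdh11 it was 1 of 2 among 14 such members of which this was so, against 19.8% of all such genes. In WT at 12 over 3 months it had -5.04 and -0.58 on replicates 1 and 2, both below. The probe that gave -5.04 was at 0.44 on replicate 2, where another probe was at -1.60, so no probe was below on both. The fitted ratio of Pcdh9 was -2.81 ± 0.99 for the WT ages (limma adjusted p = 0.253). It was -1.16 without replicate 1 and -4.42 without replicate 2 of that comparison. Without replicate 1 no member lay below 0 for the WT ages at an unadjusted limma p under 0.05. For genotype it was 0.82 ± 0.99 at 3 months and 1.90 ± 0.88 at 12 months (limma adjusted p = 0.715 and 0.293). The ratio at 12 months was 0.16 with abundant transcripts as the centre, and -1.17 if ratios are read as Cy5 over Cy3.

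Pcdh20 was listed on all arrays, at 4.82, -0.74 and -3.06 in WT at 12 over 3 months. Genotype arrays gave 3.98, 4.62 and -0.30 at 3 months, with 2.19, 2.02 and 2.36 at 12 months, above the array median on 5 of 6. The values at 12 months had an SD of 0.17 over 3 arrays, against 2.67 at 3 months. At 3 months the first probe had 8.20 and 7.16 on replicates 1 and 2, where the second had -0.25 and 2.09, and at 12 months all values came from the second probe. Fitted genotype ratios were 2.73 ± 1.45 at 3 months and 2.31 ± 1.44 at 12 months (limma adjusted p = 0.368 and 0.429). The second probe on its own gave 0.16 ± 1.03 and 2.24 ± 1.02 (limma adjusted p = 0.957 and 0.272), so the ratio at 3 months rests on the first probe. Read as Cy5 over Cy3, the gene was at -2.31 at 3 months.

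Pcdh15, known from the tip links of hair cells, had -2.08 and -0.53 in 3xTG over WT at 3 months, then 2.29 and -0.58 at 12 months. In WT at 12 over 3 months it had -1.25 and -1.20, below the array median on both. Its fitted ratios were -2.66 ± 1.40 for the WT ages, -2.74 ± 1.40 for genotype at 3 months and 0.86 ± 0.97 at 12 months (limma adjusted p = 0.486, 0.368 and 0.686). The plain means were -1.22 for the WT ages and -1.30 for genotype at 3 months. Pcdh7 stayed between -0.76 and 0.20 on the 4 genotype arrays that listed it and had 2.93 and -0.36 for the WT ages. Pcdh8, the activity-induced protocadherin called arcadlin, had 0.65 and -0.45 for the WT ages, 1.61 on 1 array of 3xTG over WT at 3 months and 5.36 on 1 array at 12 months. Pcdh10 had 3.69 and 1.49 in 3xTG over WT at 3 months, then -1.10 and 0.73 at 12 months. Pcdh17 had 1 value in each comparison, between -0.42 and 0.16. Pcdh19, the X-linked gene known from a female-limited epilepsy, had 1.64 and -0.05 for the WT ages and was not listed in either genotype comparison.

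None of the 7 catenins had enough values for the test. Ctnnb1 (beta-catenin) had 2.34, 5.79 and -1.20 in 3xTG over WT at 12 months and -0.98 on 1 array of WT at 12 over 3 months. Its mean at 12 months was 2.31 with an SD of 3.50, so the 3 arrays did not give 1 direction. Ctnnd2 (delta-catenin), a neuronal p120-type catenin, had 0.87, -2.52 and -1.59 for the WT ages, 0.07 on 1 array of 3xTG over WT at 3 months, then -4.96 and 1.20 at 12 months. Ctnnd1 (p120-catenin) had -0.62 on 1 array of the WT ages, 2.51 and -0.16 in 3xTG over WT at 3 months, then -0.44 and -0.67 at 12 months. Ctnna2, the neuronal alpha-catenin, had -2.71 for the WT ages, 1.35 for genotype at 3 months and 0.35 at 12 months, on 1 array each. The 2 catenins with 3 values in a comparison, Ctnnd2 and Ctnnb1, had both signs there.

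Of 23 junction partners and cadherin-cleaving enzymes on the array, 9 could be tested and 0 passed in any comparison. Their median fitted ratios were -0.54 for the WT ages, -1.02 for genotype at 3 months and -0.10 at 12 months. Cdc42, a small GTPase that acts on junctional actin, was at 2.72 ± 0.99 at 3 months and 1.69 ± 0.98 at 12 months for 3xTG over WT (limma adjusted p = 0.216 and 0.388). Afdn (afadin), which ties nectins to actin, was at -4.51 ± 1.80 for the WT ages (limma adjusted p = 0.306). Jup (plakoglobin), the close relative of beta-catenin, was at -0.07 at 3 months and -0.10 at 12 months.

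Of 19 genes of beta-catenin signalling, 4 could be tested and 0 passed. At 3 months, for 3xTG over WT, Lef1, a transcription factor partner of beta-catenin, was at -2.29 ± 1.33 and Dvl3, a Dishevelled protein, at 3.02 ± 1.64 (limma adjusted p = 0.418 and 0.393). Apc, a scaffold of the complex that degrades beta-catenin, was at 1.53 ± 1.45 at that age. Of 19 further genes of the cadherin superfamily, 2 could be tested, the desmosomal Dsg2 and the calsyntenin Clstn1, and 0 passed.

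Cell type markers were also spread. Of 10 neuronal markers 7 could be tested, with median fitted ratios of 0.63, 1.83 and 0.32 in the 3 comparisons, against -0.15, 0.12 and 0.48 for all genes. These medians cover opposite signs. For the WT ages 5 were above 0 and 2 below, with Snap25 at 2.52 and Syt1 at -2.74 (limma adjusted p = 0.165 and 0.159). For genotype at 12 months 4 were above and 3 below, with Syt1 at 3.18 and Grik4 at -0.82 (limma adjusted p = 0.162 and 0.708). Of 6 oligodendrocyte markers 2 could be tested: Mbp, a myelin gene, was at 2.18 ± 0.84 and 3.13 ± 0.74 for 3xTG over WT at 3 and 12 months (limma adjusted p = 0.251 and 0.14), and Mag, another, at -0.99 and -0.32. Gfap, the 1 of 7 astrocyte markers tested, was at 0.43 at 3 months and -1.23 at 12 months, whereas the 3 listed on 2 or more arrays at 12 months alone had a median of 0.87 there. The 2 of 7 microglial markers tested, Csf1r and Tmem119, were both above 0 at 3 months and below 0 at 12 months. Foxj1, 1 of 4 ependymal markers, was at 0.01 and -0.97, and with the looser listing 2 of them had a median of 1.15 at 12 months. The part of these cell types in the values of the members was not tested.

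The 48 members that could not be tested were listed on 1 to 7 arrays each. Of their 179 gene values 95 were above the array median and 84 below, from -6.26 to 6.46. The 18 clustered protocadherins among them gave 37 values above and 34 below, and the 7 catenins 12 above and 16 below. The 7 untested type II cadherins gave 15 above and 12 below, and the 8 other protocadherins 16 and 15. In the small groups of 3 type I and 5 other cadherins, 7 of 10 and 8 of 12 values were above.

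The spread between arrays was compared with that of all genes. Over genes listed on all 3 arrays of a comparison, the median SD of members was 1.61 for the WT ages (12 genes), 1.82 for genotype at 3 months (12 genes) and 1.19 at 12 months (16 genes). For all genes it was 1.28, 1.34 and 1.28. One sign on all 3 arrays was found in 4 members above and 1 below for the WT ages, against 15.6% and 23.3% of all genes. At 3 months it was 1 above and 1 below, against 28.4% and 19.8%, and at 12 months 5 above and 2 below, against 30.4% and 16.3%. Where 2 or more probes of a gene were listed on the same array, they had the same sign in 33 of 60 cases, 55.0%, for members and in 50.8% for all genes, and the median SD between probes was 1.37 and 1.41.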

How the data were processed

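The deposited log2 ratios of the 9 two-colour arrays were used, as the authors provided them in the series' value table. How they were scanned, normalized and filtered is not given in the labels or the file header. The log2 scale is a reading of the values and the direction is that of the labels. Probe symbols came from the platform annotation and were updated through RefSeq (GRCm38.p6). Of 29922 probes 21020 had 1 symbol and 8902 none. The median of the values an array lists was subtracted from them, and probes of a gene were averaged. limma 3.58.1 (R 4.3.3) fitted genes listed on 2 or more arrays in every comparison, 3980 in number, of which 3944 could be fitted. The model had a coefficient for each comparison and a dye term, since Cy5 carried the test RNA on 3 arrays and Cy3 on the other 6. The covariance came from shared mice, with a between-mouse to between-array variance ratio of 0.115 from 516 complete genes. P-values were moderated by eBayes and Benjamini-Hochberg adjusted over all genes tested (threshold 0.05). A run of the fit on simulated data checked the code only, since its missing values did not depend on the size of the ratio. Same-numbered arrays did not deviate together (correlations -0.081 to 0.063), so numbers were not used as pairs.

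Per-array values are given for the members of smallest p in each direction and comparison with 1 sign on the listed arrays, for those on all arrays, and for a list of brain cadherins, protocadherins and catenins. Members and lists were chosen with earlier results of these data known. Arrays of a comparison correlated at 0.201 to 0.315 across genes. Read as test over control, pairs of opposite dye spanned that range and pairs of the same dye lay between 0.300 and 0.312. Intensities were not used here, so signal over background could not be judged, and precision is limited by there being 9 arrays.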

Additional observations from a re-analysis of the deposited data

Results flagged for a closer look

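The gene mean of Cdh2 was above the array median on all 3 arrays of 3xTG over WT at 3 months and below it on all 3 at 12 months. On replicate 1 its probes had opposite signs at both ages, 1.61 and -1.51 at 3 months and 2.38 and -2.67 at 12 months. The sign of the gene mean on these arrays thus does not hold for each probe. The genotype ratio at 12 months minus that at 3 months was -1.59 on the log2 scale, and limma gave this difference an adjusted p of 0.647, which does not pass the threshold.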

How the results depend on the processing

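No member that could be tested was called in any contrast under any of the 21 alternatives. The count of all genes called, 0 with the fit described, was 35 for the WT ages and 23 for genotype at 3 months with arrays treated as independent. Without the dye term it was 47 and 11. Among genes listed on all 9 arrays, where 516 are tested, it was 17, 27 and, at 12 months, 20. Read as Cy5 over Cy3, fitted ratios for the WT ages were -0.50 for Cdh18, -0.35 for Cdh2 and 2.51 for Pcdhb5. For 3xTG over WT at 3 months that reading gave -0.27 for Pcdh9, 2.16 for Pcdh15 and 0.45 for Pcdhb19, and at 12 months -1.17 for Pcdh9, -0.67 for Pcdha1 and 0.51 for Pcdhb19, all of opposite sign to the reading used. Without centring Pcdhgc5 was at 0.073 for the WT ages, and with abundant transcripts as the centre Pcdha1 was at -0.30 at 12 months. With the replicate block 0 members were called and Pcdh9 was at -0.71 for genotype at 3 months. As single arrays were left out, Pcdh9 there ranged without the block from -0.28 (without replicate 3 of that comparison) to 1.79 (without replicate 1). The causes were not tested. Medians of the members and of their families also changed sign under some alternatives, that of the members for the WT ages lying between -0.33 and 2.41. Cdh11 ranged from 3.05 to 3.28 at 3 months and from 2.36 to 2.78 at 12 months as single arrays were left out. How far depth limits these values could not be measured without intensities.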
